A study of Rattus norvegicus with 7 samples.

Results

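Homologous recombination and replication stress genes encode the proteins that repair broken DNA from an intact copy and that protect and signal stalled replication forks. The set was chosen by gene symbol, with earlier results of these data known: Brca1, Bard1, Brca2, Exo1, Blm, Fancd2, Clspn, Chek1 and Chek2. Of these 9 genes, 8 had a row among the 17141 genes in the deposited table, and Chek1, the checkpoint kinase activated by Atr, was not analysed here. Levels are in RPKM, reads per kilobase of gene divided by a size that the authors used for each library. The reads of the listed genes came to between 85.5% (miR-199a-3p) and 110% (cel-miR-67) of that size, so it was not the plain read total. All 8 genes reached a mean of 1 RPKM over the libraries, the minimum for the 12330 genes to which they are compared.

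The cells were ventricular cardiomyocytes of wild type Wistar rats at postnatal day 0, pre-plated to deplete cells that attach early and measured in bulk. They were transfected with 25 nM of 1 synthetic miRNA, using Lipofectamine RNAiMAX, and lysed after 72 h, with 1 library for each miRNA. The 6 human sequences were miR-590-3p, miR-1825, miR-33b*, miR-199a-3p, miR-302d-3p and miR-373-3p, which the study's title counts among the miRNAs that induce cardiomyocyte proliferation. The other library received cel-miR-67, a nematode miRNA that is the denominator of the authors' ratios and is used here as the control. The question put to the data here is how transcripts of these repair genes stood after each miRNA.

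In homologous recombination, nucleases including Exo1 trim the ends of a break, Brca1 with its partner Bard1 promotes that step and the recruitment of Brca2, and Brca2 readies the exposed strand for pairing with the intact copy. Blm, a helicase, untangles the joined molecules, and Fancd2 marks crosslinks and stalled forks in the Fanconi anaemia pathway. Claspin (Clspn) carries the signal from Atr to Chek1, while Chek2 is activated by Atm at breaks. Many of these genes are E2F targets that are transcribed as cells enter S phase, a programme that rat cardiomyocytes lose soon after birth.

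Promoters of 7 of the 9 genes were matched by symbol in the RefSeq promoter table (build GRCr8, 250 bases before to 50 bases after the start of the gene). They were searched on both strands for E2F words (TTTCCCGC, TTTGGCGC, TTTCGCGC or TTTGCCGC), for cell cycle homology region (CHR) words (TTTGAA or TTCGAA) and for CCAAT. An E2F word was present in 4 of the 7 (Bard1, Fancd2, Clspn and Chek1), and in 2.14% of all 33469 promoters of that length. CHR words were in 1 of 7 (Bard1) against 19.7% of all promoters, and CCAAT in 3 of 7 (Brca1, Exo1 and Clspn) against 37.5%. None of the words found overlapped another. The letters describe these windows only, and no factor was measured on them. Shown are the 3 promoters with an E2F word whose genes have expression values, and that of Exo1. The Exo1 and Clspn windows each held a pair of CCAAT words, but that of Exo1 held no E2F word. Levels of Exo1 moved with those of Clspn (Pearson r = 0.803 over 7 libraries). They also moved with those of Brca2 (0.826), whose window held none of the words. Both r were among the highest between the genes. Where an E2F word was shared, r was 0.764 (Bard1 and Fancd2), 0.520 (Bard1 and Clspn) and 0.337 (Fancd2 and Clspn). For CCAAT it was also 0.488 (Brca1 and Exo1) and 0.127 (Brca1 and Clspn). Whether shared words go with shared levels was not tested. Capitals mark the words found.
Bard1, chr9:80143706-80144005, strand -: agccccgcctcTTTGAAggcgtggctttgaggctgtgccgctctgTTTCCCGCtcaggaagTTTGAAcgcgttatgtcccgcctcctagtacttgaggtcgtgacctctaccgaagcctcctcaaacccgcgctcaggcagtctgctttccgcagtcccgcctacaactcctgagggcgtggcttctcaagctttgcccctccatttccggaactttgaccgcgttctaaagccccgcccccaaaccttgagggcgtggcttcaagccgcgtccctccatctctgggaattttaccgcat
Fancd2, chr4:148234458-148234757, strand +: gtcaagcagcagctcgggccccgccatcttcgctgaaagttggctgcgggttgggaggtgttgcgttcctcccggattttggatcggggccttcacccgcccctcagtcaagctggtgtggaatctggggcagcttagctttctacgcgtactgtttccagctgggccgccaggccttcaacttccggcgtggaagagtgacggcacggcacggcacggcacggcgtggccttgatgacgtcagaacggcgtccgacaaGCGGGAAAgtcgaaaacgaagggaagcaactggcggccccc
Clspn, chr5:144134387-144134686, strand +: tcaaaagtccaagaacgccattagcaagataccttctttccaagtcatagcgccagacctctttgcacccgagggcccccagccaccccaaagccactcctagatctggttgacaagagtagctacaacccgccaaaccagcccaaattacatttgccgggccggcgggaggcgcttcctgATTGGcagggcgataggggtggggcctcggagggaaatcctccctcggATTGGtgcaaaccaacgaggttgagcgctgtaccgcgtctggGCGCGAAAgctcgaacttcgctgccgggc
Exo1, chr13:90341768-90342067, strand +: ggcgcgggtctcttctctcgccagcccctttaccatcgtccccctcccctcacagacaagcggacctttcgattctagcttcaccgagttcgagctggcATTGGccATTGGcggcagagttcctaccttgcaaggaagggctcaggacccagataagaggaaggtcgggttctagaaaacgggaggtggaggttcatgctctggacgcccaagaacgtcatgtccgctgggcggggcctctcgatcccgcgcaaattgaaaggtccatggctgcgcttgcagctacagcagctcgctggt

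**Figure D1:**
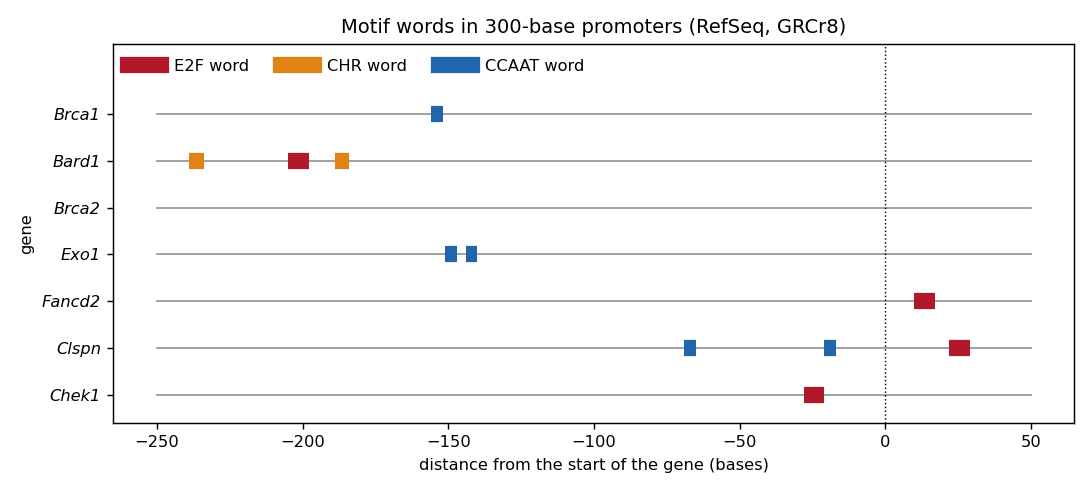
Positions of the motif words in the 7 promoters, as distance in bases from the start of the gene (dotted line at 0, grey line the searched window). E2F words lie at -205 to -198 in Bard1, at -28 to -21 in Chek1, at 10 to 17 in Fancd2 and at 22 to 29 in Clspn, and the Brca2 window holds none of the words.

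The mature sequence of miR-199a-3p is shown because no rat sequence was found under the names of the other miRNAs. The cells received the human miRNA, and the rat sequence of that name in RefSeq (GRCr8, chr13:77116294-77116315, strand +) is given with its seed, bases 2 to 8, in capitals.
rno-miR-199a-3p: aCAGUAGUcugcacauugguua

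The 8 genes were mostly higher after the 6 miRNAs than after cel-miR-67, by amounts that differed between genes and between miRNAs. On the log2 scale of (RPKM + 1) over (cel-miR-67 RPKM + 1), the 48 changes ran from -0.22 to 1.31, and 5 lay below 0. Of the 12330 genes, between 49.5% (miR-33b*) and 52.0% (miR-302d-3p) lay above 0 in a library. Fancd2, Bard1 and Chek2 passed 1.5-fold (a change of 0.58) upward in at least 1 library, which is 3 of 8 against 13.9% of the 12330 genes. None of the 8 passed it in all 6 libraries (0.584% of the 12330), and none passed 1.5-fold downward in any (18% of the 12330). Brca1, Bard1, Blm, Fancd2 and Chek2 lay above 0 in all 6 libraries, 5 of 8 against 13.9%. The 6 changes of a gene have the same control library, so a low value there would lift them together.

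Counted by miRNA, 3 of 8 genes were at least 1.5-fold higher after miR-590-3p (4.7% of the 12330 genes) and 3 after miR-1825 (5.94%), and 2 after miR-199a-3p (4.81%). The miR-199a-3p count was 5 with a pseudocount of 0.1 RPKM or when scaled to the reads of the listed genes. It was above the other miRNAs in both, and 0 with a pseudocount of 5 RPKM, so the order by count changed with these settings. The percentages in brackets are for a pseudocount of 1 RPKM without rescaling, and no such share stands beside these other counts. Scaling to the listed reads moved the median of the 12330 genes after miR-199a-3p to 0.30. With a pseudocount of 1 RPKM the count was 1 after miR-33b* (5.17%), 1 after miR-302d-3p (5.11%) and 1 after miR-373-3p (4.83%). At a 2-fold limit Chek2 after miR-1825 was the single value, beside 2% of the 12330 genes in that library. With a pseudocount of 0.1 RPKM, Chek2 (1.07) and Bard1 (1.02) passed it too after miR-590-3p, as did Bard1 (1.04) after miR-1825. The median change of the 8 genes was 0.31 after miR-590-3p, 0.43 after miR-1825, 0.11 after miR-33b*, 0.49 after miR-199a-3p, 0.15 after miR-302d-3p and 0.36 after miR-373-3p. The median of the 12330 genes lay between -0.0034 and 0.015 in the same libraries.

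With 1 library per miRNA there is no replicate and no test, so higher and lower describe these libraries. Ratios of read rates, which carry no pseudocount, are given with exact 95% Clopper-Pearson intervals for counting error only. They lay above 1 for 34 of the 48 ratios to the control and below 1 for 1 of them. Over the 12330 genes, 26.7% of such intervals lay above 1 and 26.5% below it. The median gene had 419 reads in the control, and the median of the 8 was 322.

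**Figure D2:**
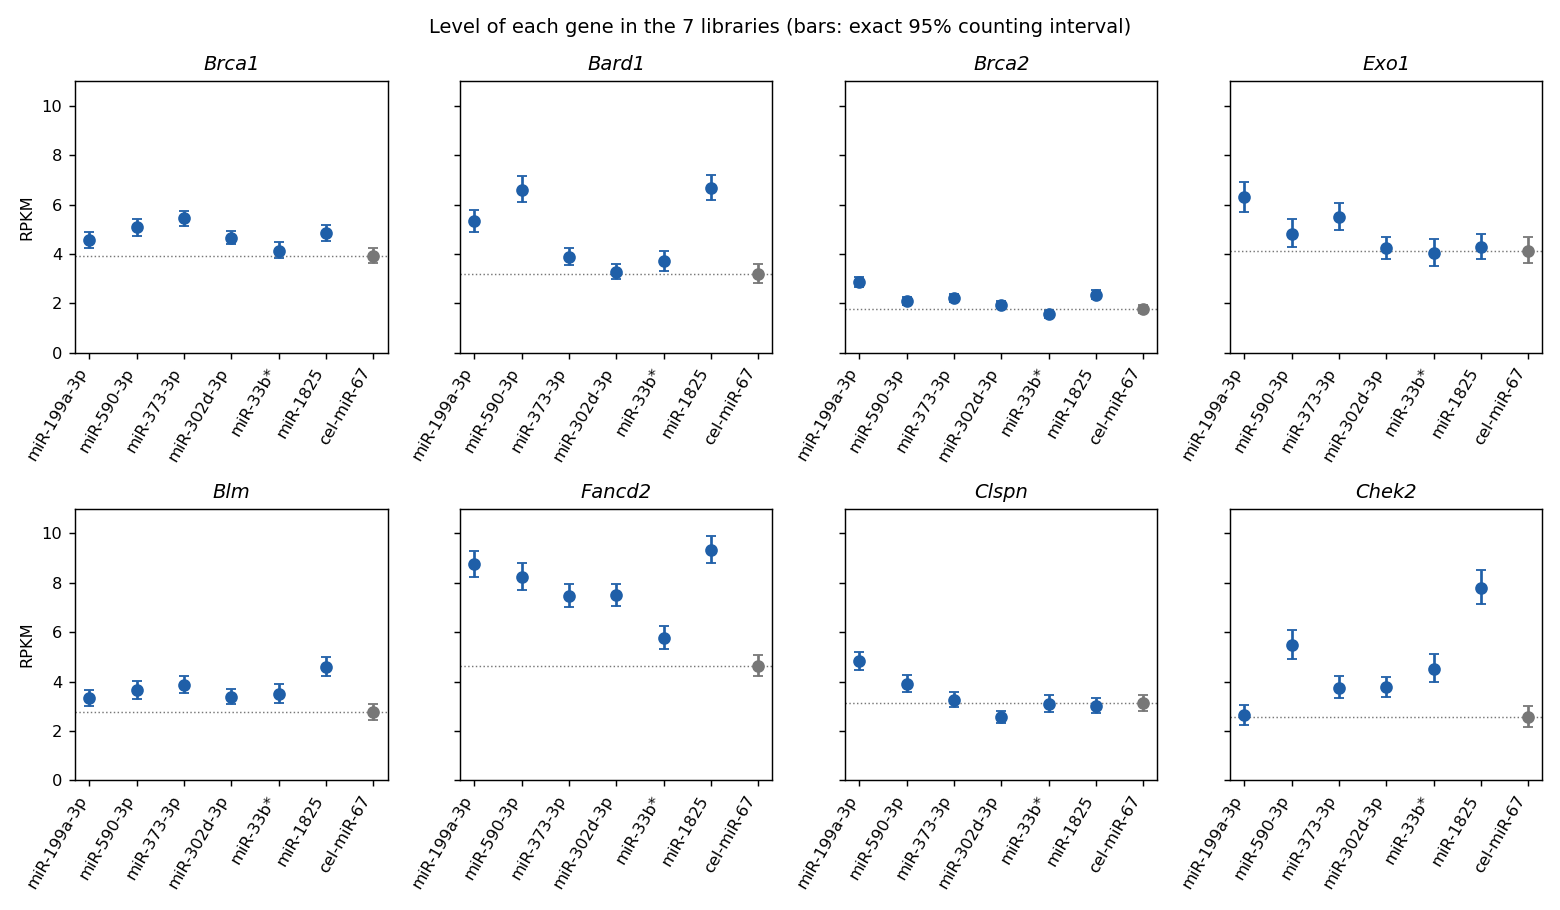
RPKM of the 8 genes (1 panel each) in the 6 miRNA libraries (blue) and the cel-miR-67 library (grey, with its level as a dotted line), and bars for the exact 95% counting interval of each level. Chek2 reaches 7.81 RPKM after miR-1825 and stays at 2.63 RPKM after miR-199a-3p, against 2.55 RPKM after cel-miR-67.

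Bard1 and Brca1, whose proteins work as a pair, differed in their pattern. Bard1 stood at 6.60 RPKM after miR-590-3p, 6.67 after miR-1825, 3.71 after miR-33b*, 5.31 after miR-199a-3p, 3.27 after miR-302d-3p and 3.88 after miR-373-3p, against 3.20 RPKM after cel-miR-67. It was high in 3 libraries and closer to the control in the others. The ratio of read rates to the control was 2.09 (1.82 to 2.40) after miR-1825, 2.06 (1.79 to 2.38) after miR-590-3p and 1.66 (1.44 to 1.92) after miR-199a-3p. After miR-199a-3p its change of 0.59 lay just past the 1.5-fold limit. After miR-302d-3p the ratio was 1.02 (0.878 to 1.19).

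Brca1 stood at 5.08 RPKM after miR-590-3p, 4.85 after miR-1825, 4.14 after miR-33b*, 4.56 after miR-199a-3p, 4.66 after miR-302d-3p and 5.44 after miR-373-3p, against 3.92 RPKM after cel-miR-67. All 6 values were above the control, within a narrow range. The ratio was highest after miR-373-3p, at 1.39 (1.26 to 1.53), and after miR-33b* the interval held 1 (0.944 to 1.18). Bard1 exceeded Brca1 per length after miR-590-3p, miR-1825 and miR-199a-3p, while Brca1 exceeded Bard1 in the control, where the counting intervals of the 2 genes did not overlap.

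Brca2, which acts on the trimmed strand, was the lowest of the 8 genes per length in 6 libraries. After miR-199a-3p Chek2 was lowest, with a counting interval that overlapped that of Brca2. Brca2 levels were 2.09 RPKM after miR-590-3p, 2.34 after miR-1825, 1.55 after miR-33b*, 2.85 after miR-199a-3p, 1.95 after miR-302d-3p and 2.21 after miR-373-3p, against 1.76 RPKM after cel-miR-67. One library stood highest: the ratio after miR-199a-3p was 1.62 (1.43 to 1.83), and the next was 1.33 (1.17 to 1.51) after miR-1825. With the pseudocount the change after miR-199a-3p was 0.48, short of the 1.5-fold limit. After miR-33b* Brca2 was below the control, at a ratio of 0.883 (0.765 to 1.02).

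Exo1, the exonuclease of end resection and mismatch repair, stood at 4.83 RPKM after miR-590-3p, 4.28 after miR-1825, 4.03 after miR-33b*, 6.29 after miR-199a-3p, 4.22 after miR-302d-3p and 5.49 after miR-373-3p, against 4.13 RPKM after cel-miR-67. Values after miR-199a-3p and miR-373-3p stood clear of the control, with a ratio of 1.52 (1.30 to 1.79) after miR-199a-3p and 1.33 (1.13 to 1.57) after miR-373-3p. The intervals of the other 4 ratios held 1.

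Blm, the helicase that resolves joined molecules, was above the control after every miRNA, and most after miR-1825. Its levels were 3.65 RPKM after miR-590-3p, 4.60 after miR-1825, 3.51 after miR-33b*, 3.33 after miR-199a-3p, 3.38 after miR-302d-3p and 3.87 after miR-373-3p, against 2.75 RPKM after cel-miR-67. The 6 intervals lay above 1, and the ratio after miR-1825 was 1.67 (1.44 to 1.94). The change there, 0.578, was the nearest below the 1.5-fold limit of 0.585.

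Fancd2, the Fanconi protein, was the most abundant of the 8 genes per length in all 7 libraries. It stood at 8.25 RPKM after miR-590-3p, 9.34 after miR-1825, 5.77 after miR-33b*, 8.75 after miR-199a-3p, 7.51 after miR-302d-3p and 7.47 after miR-373-3p, against 4.64 RPKM after cel-miR-67. The control was the lowest library, and miR-33b* was the nearest to it. Ratios ran from 1.24 (1.10 to 1.41) after miR-33b* to 2.01 (1.80 to 2.25) after miR-1825, and the 6 intervals lay above 1. Its changes passed 1.5-fold in 5 libraries, narrowly after miR-302d-3p (0.59) and again after miR-373-3p (0.59).

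Clspn, the adaptor for Chek1 activation, was near the control in 3 libraries and below it in 1. It stood at 3.92 RPKM after miR-590-3p, 3.01 after miR-1825, 3.10 after miR-33b*, 4.82 after miR-199a-3p, 2.55 after miR-302d-3p and 3.27 after miR-373-3p, against 3.13 RPKM after cel-miR-67. It was high after miR-199a-3p (ratio 1.54, 1.35 to 1.76) and miR-590-3p (1.26, 1.09 to 1.44). After miR-302d-3p its interval lay below 1 (0.816, 0.708 to 0.940), the 1 such case among the 48. When values were scaled to the reads of the listed genes, the median of all 12330 genes shifted to 0.011 after miR-590-3p, 0.11 after miR-1825, 0.095 after miR-33b*, 0.30 after miR-199a-3p, 0.23 after miR-302d-3p and 0.17 after miR-373-3p. Under that scaling Clspn was at -0.032 after miR-302d-3p, and it turned positive after miR-33b* (0.082) and miR-1825 (0.059), each of these below the shifted median of its library.

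Chek2, the kinase activated by Atm, had the widest range of the 8 genes. It stood at 5.48 RPKM after miR-590-3p, 7.81 after miR-1825, 4.52 after miR-33b*, 2.63 after miR-199a-3p, 3.77 after miR-302d-3p and 3.75 after miR-373-3p, against 2.55 RPKM after cel-miR-67. Only the miR-199a-3p library had a Chek2 level like that of the control. The ratio was 3.06 (2.54 to 3.70) after miR-1825, 2.15 (1.76 to 2.63) after miR-590-3p, 1.77 (1.43 to 2.18) after miR-33b* and 1.03 (0.822 to 1.29) after miR-199a-3p. It lay at 1.47 after miR-302d-3p and 1.47 after miR-373-3p. Of the 12330 genes, 1.05% had a larger change than Chek2 after miR-1825, and 44.7% had a larger one after miR-199a-3p. Between 144 and 520 Chek2 reads a library stand behind these values.

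**Figure D3:**
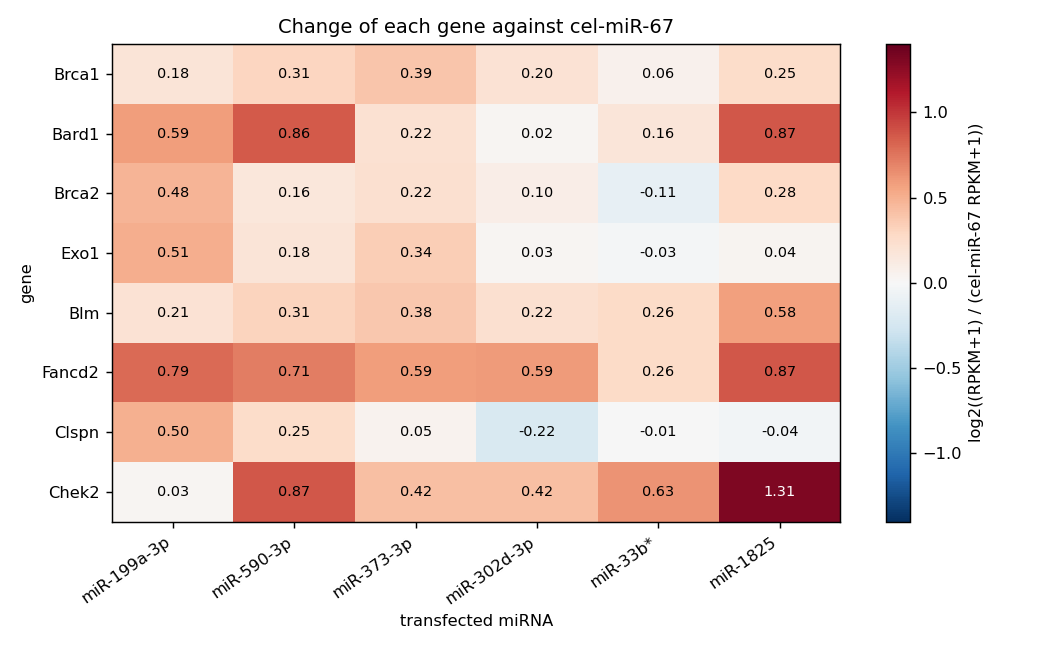
Log2((RPKM + 1)/(cel-miR-67 RPKM + 1)) of the 8 genes (rows) for the 6 miRNAs (columns), red above and blue below 0. Chek2 spans 0.031 after miR-199a-3p to 1.31 after miR-1825, Fancd2 is red throughout, and Clspn, Brca2 and Exo1 have their highest value after miR-199a-3p.

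The library with the highest level split the genes. Bard1, Blm, Fancd2 and Chek2 were highest after miR-1825 (4 of 8, against 19.2% of the 12330 genes), Brca2, Exo1 and Clspn after miR-199a-3p (3 of 8, against 16.6%), and Brca1 after miR-373-3p (1 of 8, against 9.64%). None was highest in the control, where 13.4% of the 12330 genes had their highest value. Bard1 was nearly level between miR-1825 and miR-590-3p, with a ratio of 1.01 (0.906 to 1.13). For Brca1 the counting intervals after miR-373-3p (5.13 to 5.76 RPKM) and miR-590-3p (4.74 to 5.43 RPKM) overlapped. For Exo1 those after miR-199a-3p (5.70 to 6.91 RPKM) and miR-373-3p (4.98 to 6.04 RPKM) overlapped. Fancd2 was nearly level between miR-1825 and miR-199a-3p, at 1.07 (0.979 to 1.16), and it was higher after miR-199a-3p when scaled to the reads of the listed genes. The median of the 12330 genes also rose more after miR-199a-3p (0.30) than after miR-1825 (0.11) with that scaling.

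A direct comparison of miR-1825 with miR-199a-3p, chosen after these values were seen, gives the size of these differences. Its direction is fixed for most of the genes by which library was highest, and is no separate evidence of the split. Chek2 stood at 7.81 RPKM after miR-1825, against 2.63 RPKM after miR-199a-3p, a ratio of 2.97 (2.50 to 3.54), and 0.819% of the 12330 genes had a larger log2 difference. Blm (1.38, 1.21 to 1.57) and Bard1 (1.26, 1.12 to 1.40) were also higher after miR-1825. Clspn (0.625, 0.551 to 0.708), Exo1 (0.681, 0.585 to 0.793) and Brca2 (0.822, 0.740 to 0.913) were lower after miR-1825. The intervals of Brca1 (0.969 to 1.17) and Fancd2 (0.979 to 1.16) held 1. At the 1.5-fold limit with a pseudocount of 1 RPKM, Chek2 was the 1 gene higher (7.27% of the 12330) and none was lower (6.53%). Scaled to the reads of the listed genes, the log2 difference of Chek2 was 1.11, that of Clspn -0.72 and that of Exo1 -0.66, while Bard1 was at 0.090 and Brca1 and Fancd2 turned negative (-0.11 and -0.12).

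miR-302d-3p and miR-373-3p belong to one seed family, and 6 of the 8 genes were lower after miR-302d-3p than after miR-373-3p, against 49.1% of the 12330. So were 22 of 22 S phase genes and 18 of 19 G2 and M phase genes. The ratio was 0.769 (0.667 to 0.886) for Exo1, 0.780 (0.686 to 0.888) for Clspn and 0.842 (0.738 to 0.961) for Bard1. It was 0.857 (0.788 to 0.931) for Brca1, 0.873 (0.773 to 0.987) for Blm and 0.881 (0.792 to 0.980) for Brca2. Fancd2 (1.01, 0.923 to 1.10) and Chek2 (1.00, 0.854 to 1.18) were level within counting error. None of the 8 passed 1.5-fold in either direction, where 1.42% of the 12330 genes were higher and 0.981% lower. The median size of the log2 difference was 0.17 for the 8 genes and 0.10 for the 12330.

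**Figure D4:**
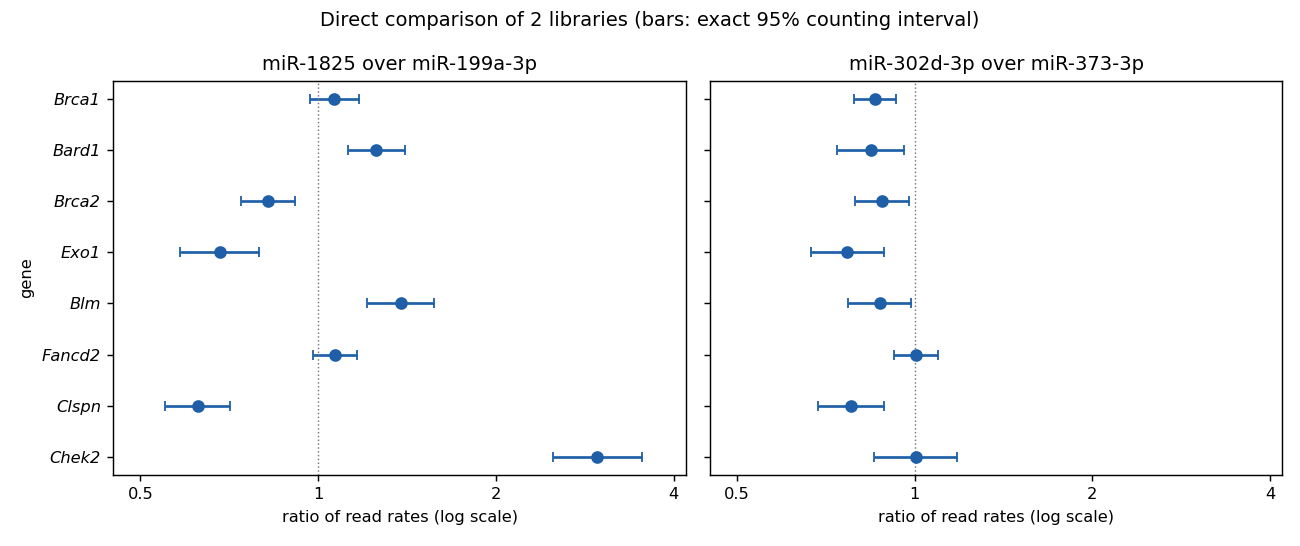
Ratio of read rates between 2 libraries for each gene, on a log axis, with bars for the exact 95% counting interval and a dotted line at 1. In the left panel (miR-1825 over miR-199a-3p) Chek2 lies at 2.97 and Clspn at 0.625, and in the right panel (miR-302d-3p over miR-373-3p) the 8 ratios lie between 0.769 and 1.01.

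Per length, the 8 genes lay between 1.76 and 4.64 RPKM in the control, where 8.66% (Brca2) to 32.3% (Fancd2) of the protein-coding genes that reached the minimum level were lower. The order in the control was Fancd2, Exo1, Brca1, Bard1, Clspn, Blm, Chek2 and Brca2. Counting intervals overlapped between neighbours in that order except between Brca1 and Bard1 and between Chek2 and Brca2. After miR-1825 Chek2 was next below Fancd2, with an interval that overlapped that of Bard1, and Clspn was just above Brca2, the lowest.

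The other genes of the pathway had smaller median changes than the 8, but the 8 and these lists were chosen with earlier results of these data known. Lists of 7 kinds (homologous recombination, Fanconi anaemia, Atr signalling and fork protection, Atm signalling, dissolution of joined molecules, end joining and mismatch repair) held 94 other genes, of which 91 were matched and 88 reached the minimum level. Their median change was 0.070 after miR-590-3p, 0.051 after miR-1825, -0.041 after miR-33b*, 0.11 after miR-199a-3p, 0.065 after miR-302d-3p and 0.13 after miR-373-3p. At least 1.5-fold higher were 7 of 88 after miR-590-3p (4.7% of the 12330 genes), 6 after miR-1825 (5.94%) and 7 after miR-199a-3p (4.81%). The count was 2 after each of miR-33b* (5.17%), miR-302d-3p (5.11%) and miR-373-3p (4.83%). At least 1.5-fold lower were 2 after miR-199a-3p (5.55% of the 12330 genes), and 0 after miR-590-3p (3.49%), miR-1825 (6.33%), miR-33b* (5.52%), miR-302d-3p (7.32%) and miR-373-3p (6.56%). In at least 1 library 11 of the 88 were higher, near the 13.9% of the 12330 genes, and 2 were lower, against 18%.

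Ube2t, the conjugating enzyme that attaches ubiquitin to Fancd2, had the largest change among them. It stood at 29.8 RPKM after miR-590-3p, 40.8 after miR-1825, 19.9 after miR-33b*, 18.5 after miR-199a-3p, 10.5 after miR-302d-3p and 15.9 after miR-373-3p, against 6.45 RPKM after cel-miR-67. All 6 values were above the control, with changes from 0.62 to 2.49, and the highest was after miR-1825, as for Fancd2. Fanci, the partner of Fancd2, which was picked after its values were seen, ran from 0.16 after miR-33b* to 0.62 after miR-1825. Over the 13 other Fanconi genes tested, medians by library lay between -0.062 and 0.16, and Wdr48, a cofactor of the enzyme that removes this ubiquitin, was lowest on average (-0.15).

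Of the 20 other homologous recombination genes, Rad54l, a DNA translocase of strand exchange, was highest on average (changes from 0.16 to 0.65), and Mnd1, known from meiotic recombination, was lowest (-0.49 to -0.077). Rmi2, a partner of Blm, had its largest change after miR-199a-3p (0.98), where Blm itself was at 0.21. Polq, the polymerase of microhomology end joining, was at 1.06 after miR-1825 and 0.078 after miR-302d-3p. Mms22l, which acts at stalled forks, had changes of 0.86 (miR-590-3p) and 0.79 (miR-199a-3p). H2afx, the histone phosphorylated at breaks, ran from -0.076 after miR-373-3p to 1.30 after miR-1825. These genes, like the 8, did not share 1 highest library.

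The lowest on average in 4 further lists were Hus1 of the checkpoint clamp (mean -0.18), Fam175a of a Brca1 complex (-0.21), the nuclease gene Mus81 (-0.29) and the end joining kinase Prkdc (-0.15). Msh3 was the highest of the mismatch repair genes, at a mean of 0.15. The 2 genes past 1.5-fold downward, named after their values were seen, were Parp1, a sensor of broken strands (-0.83), and Fignl1, an ATPase of homologous recombination (-0.66), both after miR-199a-3p.

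Genes of G2 and M phase stood above the 8, and genes of S phase lay closer to them. Both lists were also chosen with earlier results of these data known. The 19 G2 and M phase genes measured had medians of 1.39 after miR-590-3p, 1.66 after miR-1825, 0.82 after miR-33b*, 0.94 after miR-199a-3p, 0.74 after miR-302d-3p and 0.92 after miR-373-3p, and 19 of 19 were highest after miR-1825, where 19.2% of the 12330 genes had their highest value. Their mean changes ran from 0.78 (Plk1, a mitotic kinase) to 2.41 (Ccnb1, a mitotic cyclin). The 22 S phase genes had medians of 0.30 after miR-590-3p, -0.0024 after miR-1825, 0.017 after miR-33b*, 0.37 after miR-199a-3p, 0.058 after miR-302d-3p and 0.22 after miR-373-3p, and 12 of 22 were highest after miR-199a-3p, against 16.6% of the 12330. Their mean changes ran from -0.19 (Cdt1, a replication licensing factor) to 0.43 (Tyms, thymidylate synthase). Single changes spread wider, and Rrm2 ran from -0.44 after miR-33b* to 1.14 after miR-1825.

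**Figure D5:**
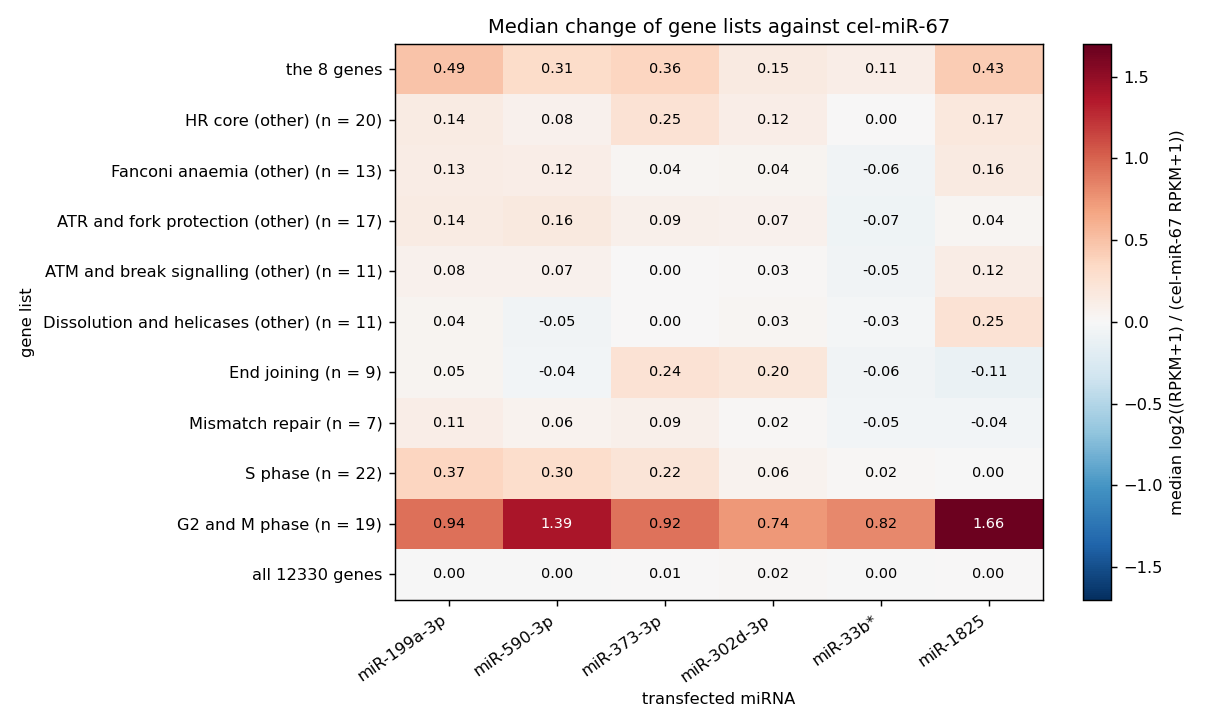
Median log2((RPKM + 1)/(cel-miR-67 RPKM + 1)) of the 8 genes, of the 7 lists of other repair genes, of the S phase and G2 and M phase lists, and of all 12330 genes, for the 6 miRNAs. The 8 genes lie between 0.11 and 0.49, and the G2 and M phase list lies above them in each column.

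The protein-coding genes whose level followed the mean of the 8 most closely over the 7 libraries were Smc2 (Pearson r = 0.997 on log2 of RPKM + 1), Melk (0.983), LOC679582 (0.980), Ercc6l (0.978), Txnrd1 (0.978), Sgol2 (0.973), Mki67 (0.973) and Spag5 (0.971). Each r describes 7 single libraries, which also share their depth and scaling between genes. Smc2, a condensin subunit, stood at 38.7 RPKM after miR-590-3p, 41.0 after miR-1825, 25.6 after miR-33b*, 37.0 after miR-199a-3p, 26.5 after miR-302d-3p and 31.3 after miR-373-3p, against 20.3 RPKM after cel-miR-67. Among the 8 themselves, r ran from 0.859 (Blm and Chek2) and 0.826 (Brca2 and Exo1) down to -0.351 (Exo1 and Chek2).

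Markers of the labelled cell type were abundant: the 9 cardiomyocyte markers matched summed to between 15600 and 21083 RPKM in the 6 miRNA libraries, against 21407 RPKM in the control. Single markers departed from the sum. Ryr2 was below the control in all 6 (mean change -0.78), and Tnni3 ran from -1.34 after miR-1825 to 0.42 after miR-302d-3p. After miR-1825 only 1 of the 9 was above the control. The 10 fibroblast markers summed to 607 to 840 RPKM after the miRNAs, against 902 RPKM in the control. Their mean changes ran from -1.19 (Postn) to 0.30 (Lum). The 6 smooth muscle markers summed to 768 to 1172 RPKM after the miRNAs, against 757 RPKM in the control. The smooth muscle markers did not move together: after miR-302d-3p Cnn1 stood at 235 RPKM, against 88.8 RPKM in the control, while Acta2 stood at 115 RPKM, against 164 RPKM in the control, and 2 of the 6 were above it. Endothelial markers (6 of 7 matched) summed to 13.5 to 17.3 RPKM after the miRNAs, against 22.4 RPKM in the control. Most of that sum was Eng (15.6 RPKM in the control). Among those that reached the minimum level, mean changes ran from -0.76 (Plvap) to 0.16 (Tek). Leukocyte markers (8) summed to 12.8 to 17.4 RPKM after the miRNAs, against 18.9 RPKM in the control. They too went both ways, with mean changes from -0.47 (Lyz2) to 0.23 (C1qb) among those that reached the minimum level. No matched marker was at 0 in any library. In bulk samples a change in the share of cells of a type and a change in RNA per cell cannot be told apart, and the part of these markers in the values of the 8 genes was not tested. The reads in listed genes came to between 22616067 and 31963293 per library. Mitochondrial genes took 27.7% of them after miR-199a-3p and up to 41.4% after miR-590-3p, against 41.0% in the control.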

How the data were processed

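RNA was sequenced in 7 libraries, grouped by the transfected miRNA in the labels. The authors deposited RPKM values for 17141 genes. The submitters' processing notes list STAR 2.7, edgeR and Rnor_6.0. How reads were counted, and whether strand was used, was not stated, so reads of overlapping genes cannot be told apart. The 7 single-sample files equalled the series table, and the deposited ratios were not used.

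Whole reads behind the RPKM values were recovered for 100% of genes (tolerance 0.002 to 0.05 reads) for counting intervals. The recovery was also run on simulated data for all 7 libraries, where 99.62% of 6000 genes were recovered.

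A pseudocount of 1 RPKM was added before each log2 change was taken, so changes of weakly expressed genes are understated. The mean over libraries had to reach 1 RPKM. With 1 library per group no test was made. Members and lists were chosen with earlier results of these data known. Named genes were the 8 members and the 8 genes most like the mean of the members. In each list of other repair genes they were the highest and lowest mean change and up to 4 genes past 2-fold. Cell cycle lists are described by their medians and extremes and by Rrm2, and their other genes past 2-fold are not named. Marker lists are described by their sums and some single markers. The lowest gene of 1 list is not reported here. Alternatives were pseudocounts of 0.1 and 5 RPKM, scaling to listed reads or by the median of ratios, the mean of the other 5 miRNA libraries as denominator, a 2-fold limit, no filter and protein-coding genes only. Python 3.11.15 was used with numpy 2.4.6, pandas 2.3.3, scipy 1.17.1 and matplotlib 3.10.9.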

Additional observations from a re-analysis of the deposited data

How the results depend on the processing

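No paired analysis was possible because each group has 1 library and the results come from no test. With a pseudocount of 5 RPKM, above the level of most of the 8 genes, 1 gene passed 1.5-fold upward after miR-1825 and 0 after each of the other 5 miRNAs, and the 6 medians fell to 0.17 (miR-590-3p), 0.23 (miR-1825), 0.061 (miR-33b*), 0.24 (miR-199a-3p), 0.076 (miR-302d-3p) and 0.20 (miR-373-3p). With 0.1 RPKM the count after miR-199a-3p was 5. Scaled to the reads of the listed genes it was also 5, with a median of 0.76, and the count after miR-302d-3p was 2. This scaling raises the median of all genes as well, to 0.30 after miR-199a-3p. Scaled by the median of ratios, the count after miR-373-3p was 0, since Fancd2 lay at the limit. At a 2-fold limit the counts were 1 after miR-1825 and 0 after each of the other 5.

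With the other 5 miRNA libraries averaged as denominator, which ranks the miRNAs among themselves, the count higher was 1 after miR-1825 and 0 after each of the other 5, and 1 gene, Chek2, was lower after miR-199a-3p. The medians were then 0.081 (miR-590-3p), 0.18 (miR-1825), -0.23 (miR-33b*), 0.14 (miR-199a-3p), -0.16 (miR-302d-3p) and -0.023 (miR-373-3p). Of the 48 changes, 28 lay below 0, against 5 with cel-miR-67 as denominator. The median of all genes with the averaged denominator lay between -0.021 (miR-33b*) and 0.0045 (miR-1825). Of the changes past 1.5-fold, 3 turned negative: Fancd2 was at -0.067 after miR-302d-3p and -0.076 after miR-373-3p, and Chek2 to -0.044 after miR-33b*. The share of all genes past 1.5-fold stayed within 1.5 times its value without the filter and with protein-coding genes only. It is not given for the other pseudocounts, scalings or denominator, so the counts under those have no background beside them. With 1 library per miRNA, the spread between cultures is unknown, and counting intervals do not cover it.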
